A study of Homo sapiens with 5 samples.

Results

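The shared distal peaks are the places away from protein-coding gene ends where Smad3 and IRF3 were both listed in BT549 cells carrying constitutively active Smad3. They were chosen by the listed positions in these 2 caSmad3 libraries, as Smad3 peaks of these cells that shared at least 1 base with an IRF3 peak of the same cells. The centre had to lie more than 1 kb from every end of a protein-coding gene, and the peak more than 1 kb from every rRNA, snRNA, tRNA and snoRNA gene of RefSeq. The rule found 393 peaks, 6.51% of the 6041 Smad3 peaks in that list and 10.0% of its 3923 distal ones (95% Clopper-Pearson interval 9.10 to 11.0%). The series as a whole lists 19372 peaks.

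BT549 is an established basal-like breast cancer line. All cells carried a lentiviral vector that stably expressed either caSmad3, a constitutively active Smad3, or HA as the control. The caSmad3 cells were transfected with polyI:C, a double-stranded RNA mimic, received no TGF-beta, and were used for Smad3 ChIP-seq and for IRF3 ChIP-seq. HA cells were used for Smad3 ChIP-seq after polyI:C and TGF-beta (1 ng/ml for 1.5 h), for Smad3 ChIP-seq after mock transfection and the same TGF-beta treatment, and for IRF3 ChIP-seq after polyI:C without TGF-beta. Each of the 5 groups holds 1 library, so no comparison between cells has a replicate or a test, and a Smad3 difference between caSmad3 and HA cells cannot be told apart from a difference in TGF-beta. The labels do not say whether the caSmad3 cells are 1 clone or a pool. The lists held 6041 Smad3 and 8067 IRF3 peaks in caSmad3 cells, against 786 and 353 Smad3 peaks and 4125 IRF3 peaks in HA cells. They carry positions only, with no read count or score, so sequencing depth is unknown, and a peak missing from a shorter list is not shown to be unbound.

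Smad3 is the transcription factor that TGF-beta receptors phosphorylate. It enters the nucleus with Smad4, reads short CAGAC and GC-rich motifs weakly, and is usually held on DNA by partners such as AP-1, RUNX or TEAD factors. IRF3 is activated by kinases downstream of sensors of foreign nucleic acid, such as those that detect polyI:C, and reads GAAA repeats in the promoters of interferon-beta and early antiviral genes. Activated IRF3 has been described to bind Smad3 and to dampen its signalling, and both factors act together with coactivators such as p300 and CBP.

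Many of the shared distal peaks lay at annotated transcription starts inside or between genes, which is why the following stretches are shown. Each is the sequence before a RefSeq start that the Smad3 peak covers, from the RefSeq start windows of GRCh38.p14, written 5′ to 3′ on the strand of its gene. PMEPA1, a TGF-beta-induced membrane protein that restrains Smad signalling, has its start opposite that of the lncRNA NKILA (chr20:57710016-57710163, minus strand). WWTR1 encodes TAZ, a coactivator of TEAD factors (chr3:149658026-149658275, minus strand). PALLD encodes palladin, an actin scaffold (chr4:168831885-168832020, plus strand). CDKN2C encodes an inhibitor of cyclin-dependent kinases (chr1:50969995-50970244, plus strand). RTN4 encodes a protein that shapes the endoplasmic reticulum (chr2:55050452-55050701, minus strand). LASTR is a lncRNA (chr10:5596119-5596368, minus strand). Capitals mark AP-1 letters (TGANTCA), Smad letters (CAGACA, here in its reverse form) and TEAD letters (GGAATG).
PMEPA1: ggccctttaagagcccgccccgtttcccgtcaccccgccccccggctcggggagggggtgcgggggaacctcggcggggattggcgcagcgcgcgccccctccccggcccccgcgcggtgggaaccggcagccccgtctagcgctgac
WWTR1: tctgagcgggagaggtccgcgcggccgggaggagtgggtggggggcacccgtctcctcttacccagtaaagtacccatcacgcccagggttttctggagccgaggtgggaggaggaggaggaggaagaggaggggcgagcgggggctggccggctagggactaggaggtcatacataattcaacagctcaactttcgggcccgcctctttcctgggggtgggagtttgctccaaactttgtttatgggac
PALLD: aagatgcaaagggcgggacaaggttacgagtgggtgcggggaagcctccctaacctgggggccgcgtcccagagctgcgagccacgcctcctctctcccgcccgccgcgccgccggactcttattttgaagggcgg
CDKN2C: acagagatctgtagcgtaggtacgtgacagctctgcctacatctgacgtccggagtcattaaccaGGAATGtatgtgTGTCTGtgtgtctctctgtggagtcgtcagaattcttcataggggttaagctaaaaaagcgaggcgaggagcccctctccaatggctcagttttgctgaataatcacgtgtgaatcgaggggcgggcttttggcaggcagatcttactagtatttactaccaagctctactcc
RTN4: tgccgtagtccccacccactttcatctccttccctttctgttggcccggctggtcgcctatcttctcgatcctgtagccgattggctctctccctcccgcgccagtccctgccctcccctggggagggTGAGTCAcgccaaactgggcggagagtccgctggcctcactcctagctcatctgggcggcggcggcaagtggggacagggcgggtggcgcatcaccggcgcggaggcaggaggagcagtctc
LASTR: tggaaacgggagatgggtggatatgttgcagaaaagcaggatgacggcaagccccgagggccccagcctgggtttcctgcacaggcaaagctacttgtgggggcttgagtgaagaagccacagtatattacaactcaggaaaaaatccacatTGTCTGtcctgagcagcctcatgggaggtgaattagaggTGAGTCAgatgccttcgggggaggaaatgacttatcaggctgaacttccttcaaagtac
The PMEPA1, WWTR1 and PALLD stretches held none of the 7 motifs searched. The Smad3 peak at WWTR1 also covered the stretch before the start of the lncRNA WWTR1-AS1 on the other strand, which held a CAGACA match and is not printed. The CDKN2C stretch held a TEAD and a CAGACA match, the RTN4 stretch an AP-1 match, and the LASTR stretch an AP-1 and a CAGACA match. The LASTR matches lay inside the Smad3 peak but outside the overlapping IRF3 peak. A match is a description of the letters, not a binding site.

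The word distal describes these peaks only by gene ends. Of the 379 shared distal peaks outside chromosome 8, whose start windows were not used here, 140 (36.9%, 95% interval 32.1 to 42.0%) overlapped a RefSeq start window, which runs from 250 bases before to 50 bases after a start. The share was 120 of 3263 (3.68%, interval 3.06 to 4.38%) for distal Smad3 peaks without IRF3, called Smad3-alone here. It was 419 of 1299 (32.3%) for distal IRF3 peaks without Smad3, called IRF3-alone. The shared peaks resembled the IRF3-alone peaks in this respect and not the Smad3-alone peaks, whose interval lies far below. Of the 140, 98 were at a protein-coding start, 62 at a lncRNA start and 20 at both, and 109 lay inside a protein-coding gene, as alternative or internal starts do. A further 21 shared distal peaks lay within 5 kb of a structural RNA gene or pseudogene, 218 lay at neither, and 14 were on chromosome 8.

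The distances to the nearest start followed the same order. The median distance was 942.5 bases for shared distal peaks, 25922 bases for Smad3-alone peaks and 3054 bases for IRF3-alone peaks. Within 1000 bases of a start lay 193 of the 379 shared peaks (50.9%), against 6.47% of the Smad3-alone and 42.7% of the IRF3-alone peaks. Beyond 10 kb lay 30.6% of the shared, 71.7% of the Smad3-alone and 41.5% of the IRF3-alone peaks. At the 140 start members the Smad3 centre had a median position of -34.75 bases from the start, with 86 of 140 before it. The centre of the overlapping IRF3 peak had a median position of 8.75 bases, with 68 of 140 before the start. The quartiles were -121 to 48.5 bases for Smad3 and -92.5 to 72.5 bases for IRF3, so the positions overlapped widely.

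**Figure D1:**
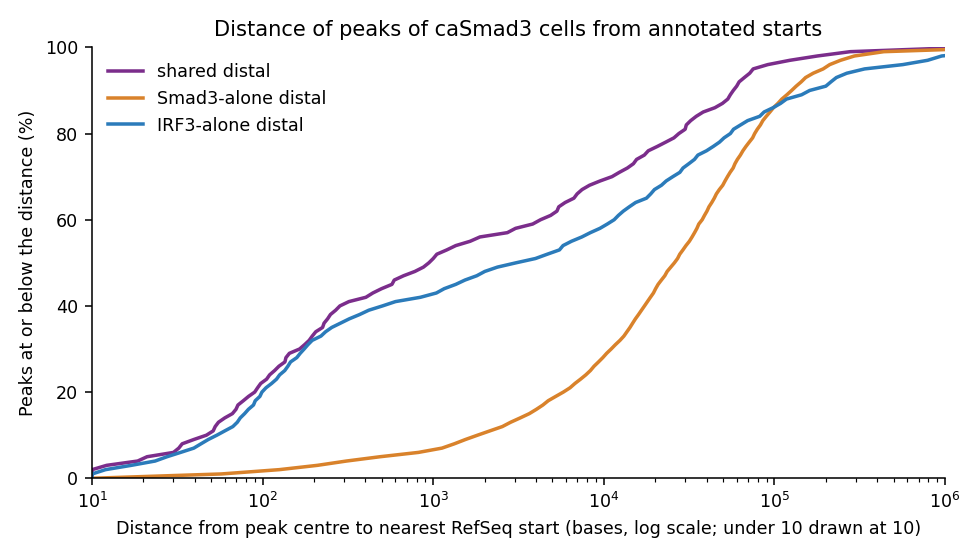
Share of peaks (y axis, percent) at or below each distance from the peak centre to the nearest RefSeq start (x axis, bases, log scale), for shared distal (n = 379), Smad3-alone (n = 3263) and IRF3-alone (n = 1299) peaks outside chromosome 8. Within 1000 bases the curves stand at 50.9%, 6.47% and 42.7% in that order.

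Position relative to protein-coding genes showed a smaller contrast. Of the shared distal peaks, 223 of 393 (56.7%, interval 51.7 to 61.7%) lay inside a protein-coding gene, against 44.8% (interval 43.2 to 46.5%) of Smad3-alone and 52.4% (interval 49.7 to 55.1%) of IRF3-alone peaks. The intervals of the shared and the IRF3-alone peaks overlap. Among shared peaks at neither a start nor an RNA copy the share was 46.3%, against 44.7% of the like Smad3-alone peaks and 39.2% of the like IRF3-alone peaks. The median distance to a protein-coding gene end was 13785 bases for shared, 38735.5 bases for Smad3-alone and 15207.75 bases for IRF3-alone peaks. The 3 members nearest the limit of the rule lay 1001 bases (DYNLRB1, a dynein light chain), 1007 bases (SCAP, the escort of SREBP proteins) and 1013 bases (CDKN2A, a locus of cell cycle inhibitors) from a gene end. Just outside it were overlapping peaks at ZMYND8 (989.5 bases), DAG1 (982.5 bases) and PPP1R14B (970 bases). At the other extreme, the 5 members farthest from a protein-coding gene end were nearest to LOC124904970 (1513847 bases), OR4C46 (1179798 bases), EPHA3 (967657 bases) and CAAP1 (578741 and 547672.5 bases). The peaks nearest OR4C46 and EPHA3 had a width of 99 bases, the smallest in the list, while the CAAP1 peaks were 749 and 458 bases wide.

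The letters in the start windows that the peaks overlapped, called windows under them here, differed between the classes for AP-1. Each window was read over all its 300 bases, so a match can lie outside the peak. TGANTCA stood, on either strand, in 16 of the 165 windows under shared distal peaks (9.70%, interval 5.65 to 15.3%), against 40 of 132 under Smad3-alone peaks (30.3%, interval 22.6 to 38.9%) and 22 of 499 under IRF3-alone peaks (4.41%, interval 2.78 to 6.60%). It stood in 7.71% of all 35116 RefSeq windows. The interval of the shared windows lies below that of the Smad3-alone windows, overlaps that of the IRF3-alone windows and holds the share of all windows. The GC-rich Smad letters GGCGCC stood in 24.2% of shared, 19.7% of Smad3-alone and 33.9% of IRF3-alone windows, against 19.2% of all windows. CAGACA stood in 16.4%, 15.9% and 9.22% of windows in the same order, against 16.9% of all. The Smad palindrome GTCTAGAC stood in 0 of 165 shared windows, where 3 counts would be 1.82%, in 0.758% of Smad3-alone windows, in 0 of 499 IRF3-alone windows, where 3 counts would be 0.601%, and in 0.202% of all windows.

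The other letters gave little contrast. The core of the ISRE, a pair of GAAA repeats read by IRF factors, stood in 2 of 165 shared windows (1.21%), in 2.27% of Smad3-alone and in 2.41% of IRF3-alone windows, against 3.57% of all. TEAD letters GGAATG stood in 13.9%, 17.4% and 9.42% in the same order, against 14.0% of all windows. RUNX letters TGTGGT stood in 13.9%, 15.9% and 11.0%, against 13.1% of all windows. For each of these, the shared and Smad3-alone intervals overlap. Median GC content moved with the classes, at 65.3% in shared, 59.7% in Smad3-alone and 65.7% in IRF3-alone windows, and its part in the motif shares was not tested. Of the 151 stretches before starts that the shared peaks themselves covered, 16 held GGCGCC, 10 CAGACA, 10 RUNX letters, 8 AP-1 letters and 7 TEAD letters. The ISRE core stood in 1 and the Smad palindrome in 0. The stretches differ in length, and no like count was made for other peaks or for all starts. Those with AP-1 letters included RTN4 and LASTR, printed above, and ADGRG1, an adhesion receptor. The AP-1 letters of LASTR and ADGRG1 lay in the Smad3 peak but outside the overlapping IRF3 peak. Windows of neighbouring and divergent starts overlap and are not independent.

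The HA libraries were not used to choose the peaks and show which of these places were listed without caSmad3. IRF3 in HA cells was listed at 198 of the 393 shared distal peaks (50.4%, interval 45.3 to 55.4%). Counted over IRF3 peaks of caSmad3 cells, 196 of the 380 distal IRF3 peaks that overlapped Smad3 were listed for IRF3 in HA cells (51.6%, interval 46.4 to 56.7%), against 305 of the 1344 IRF3-alone peaks (22.7%, interval 20.5 to 25.0%). Among IRF3 peaks at neither a start nor an RNA copy, the shares were 87 of 208 (41.8%) for those overlapping Smad3 and 147 of 841 (17.5%) for those alone. IRF3 peaks that met Smad3 in caSmad3 cells were thus listed in HA cells more than 2 times as often as those that did not. Counted over Smad3 peaks, shared peaks within the 1 kb of gene ends had a share of 909 of 1377 (66.0%, interval 63.4 to 68.5%), above the 50.4% of the shared distal peaks.

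Smad3 in HA cells after polyI:C and TGF-beta was listed at 66 of the shared distal peaks (16.8%, interval 13.2 to 20.9%), against 369 of 3530 Smad3-alone peaks (10.5%, interval 9.46 to 11.5%). After mock transfection and TGF-beta it was listed at 38 shared distal peaks (9.67%, interval 6.93 to 13.0%), against 168 Smad3-alone peaks (4.76%, interval 4.08 to 5.51%). In both libraries the intervals do not overlap, but this separation was lost without peaks near structural RNA copies (25 of the shared peaks). The shares after polyI:C were then 14.1% of 368 shared (interval 10.7 to 18.1%) and 10.5% of 3458 Smad3-alone peaks (interval 9.49 to 11.6%). After mock transfection they were 6.79% (interval 4.44 to 9.87%) and 4.86% (interval 4.17 to 5.63%), so both pairs of intervals overlap. Shared peaks at gene ends were listed less often in both, at 7.41% and 1.82%. At start members the 2 shares were 10.0% and 2.86%, against 9.17% and 5.00% of Smad3-alone peaks at starts. At members near RNA copies they were 61.9% and 57.1%. At the 218 members at neither a start nor an RNA copy they were 17.0% (interval 12.2 to 22.6%) and 9.17% (interval 5.69 to 13.8%). The like Smad3-alone peaks had 10.0% (interval 8.98 to 11.1%) and 4.49% (interval 3.79 to 5.28%). In this part neither pair of intervals overlaps. IRF3 in HA cells was listed at 56.4% of the start members, 76.2% of those near RNA copies and 44.0% of the rest. Members at starts were thus listed more often for IRF3 than for Smad3 in HA cells, but the HA lists differ in length. They held 4125 IRF3 peaks, against 786 and 353 Smad3 peaks, so no preference for IRF3 follows. Members near RNA copies were listed at over 50% in each of the 3 HA libraries, but they were 21 peaks, 10 of them in a single chromosome 21 cluster.

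**Figure D2:**
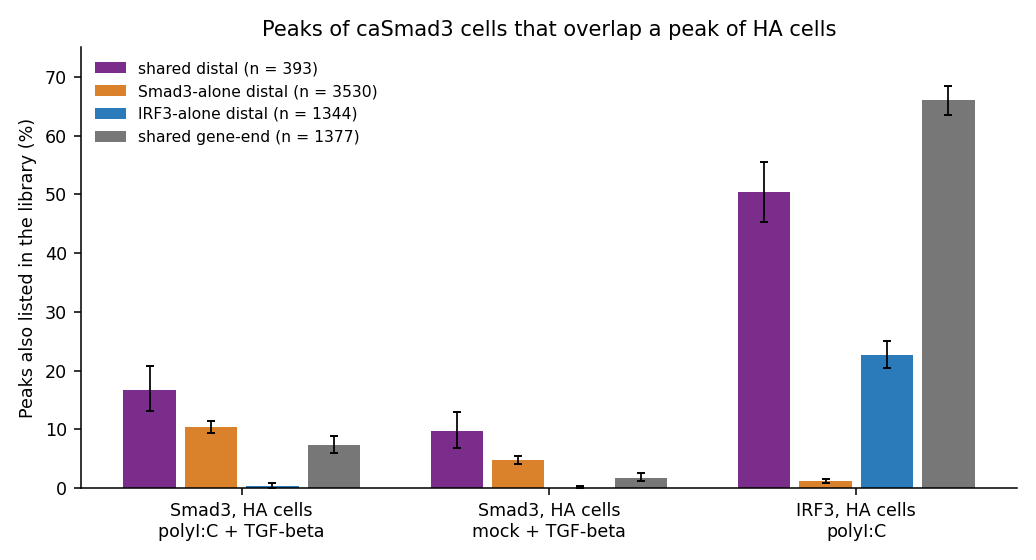
Share of peaks (y axis, percent) that overlap a peak of each HA library (x axis), for shared distal (n = 393), Smad3-alone (n = 3530), IRF3-alone (n = 1344) and shared gene-end (n = 1377) peaks of caSmad3 cells. Lines are 95% Clopper-Pearson intervals, which cover counting error only, and each library is a single sample. The IRF3-alone bars count IRF3 peaks, and the other bars count Smad3 peaks. For IRF3 in HA cells the shared distal bar stands at 50.4% and the IRF3-alone bar at 22.7%. Counted over distal IRF3 peaks, the share of those overlapping Smad3 was 51.6%.

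Peak width moved with these shares. Distal peaks of each factor were split into 4 width classes of about equal size. In the widest class of Smad3 peaks, 48 of 120 that overlapped IRF3 were listed for Smad3 in HA cells after polyI:C (40.0%, interval 31.2 to 49.3%), against 235 of 860 Smad3-alone peaks (27.3%, interval 24.4 to 30.4%). Without peaks near RNA copies the shares were 34.3% (interval 25.3 to 44.2%) and 27.4% (interval 24.4 to 30.5%), and the intervals overlap. In the 3 narrower classes the intervals overlap as well, with 4.35%, 5.26% and 10.5% of the overlapping peaks listed. For IRF3 the widest class differed with and without RNA copies. Of the IRF3 peaks there that overlapped Smad3, 148 of 178 were listed for IRF3 in HA cells (83.1%, interval 76.8 to 88.3%), against 148 of 252 IRF3-alone peaks (58.7%, interval 52.4 to 64.9%). Without peaks near RNA copies the shares were 81.6% and 59.3%. Widths inside this class were not matched, at 279 to 1910 bases for the overlapping and 278 to 822 bases for the IRF3-alone peaks. The overlapping peaks not near RNA copies spanned 279 to 1131 bases. In the 3 narrower classes the intervals overlap.

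Over all HA libraries, 174 shared distal peaks (44.3%) were listed in caSmad3 cells only, 151 (38.4%) also for IRF3 in HA cells and in no other HA library, and 29 (7.38%) in all 5 lists. These combinations were not counted for the other classes of peaks, and the HA lists were shorter than those of caSmad3 cells. The shares therefore do not show whether the members differ from other peaks. Another 13 were listed for Smad3 alone in HA cells after polyI:C, and 17 for this library and IRF3. Among the widest peaks listed in caSmad3 cells only was one at a CDKN2A start (chr9:21974584-21975329), 746 bases wide for Smad3 and 486 bases for IRF3. The LASTR peak, 739 bases wide for Smad3 and 265 bases for IRF3, and a peak inside ITGAE, an integrin subunit, 675 and 215 bases wide, were also listed only there. The peak at the WWTR1 start was 378 bases wide for Smad3 and 617 bases for IRF3 in caSmad3 cells, and in HA cells it met 2 IRF3 peaks of 290 and 182 bases and no Smad3 peak.

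Of the 29 peaks in all 5 lists, 12 lay near structural RNA copies and not at a start, 3 at starts, 12 at neither and 2 on chromosome 8. Their median width was 483 bases, against 187 bases for all members. At FRMD4A, which encodes a scaffold of cell polarity, the peak (chr10:14185347-14186062) was 716 bases wide for Smad3 and 671 bases for IRF3 in caSmad3 cells. In HA cells it was 660 bases wide for Smad3 after polyI:C, 464 bases for Smad3 after mock transfection and 455 bases for IRF3. The peak at the start of MALAT1, a nuclear lncRNA, was 456 bases wide for Smad3 and 522 bases for IRF3 in caSmad3 cells. A peak inside NEAT1, the lncRNA on which paraspeckles are built, was 363 bases wide for Smad3 and 408 bases for IRF3 in caSmad3 cells and was listed in the 3 HA libraries too. Other members of this group lay nearest RPS6KA1, a kinase downstream of ERK (697 bases wide for Smad3 in caSmad3 cells), IGBP1C (640 bases), CROCC, a ciliary rootlet protein (630 bases), and PPIAL4H (483 bases). MALAT1 and NEAT1 are among the most transcribed loci of many cell types, and transcription was not measured here.

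The members near structural RNA copies were few and wide. They numbered 21 apart from those at starts, with a median Smad3 width of 444 bases, against 182.5 bases for start members and 184 bases for the 218 at neither. The largest cluster of all, 10 peaks at chr21:8249286-8260907, surrounded the ribosomal RNA pseudogenes RNA18SP5 and RNA5-8SP10, and 9 of the 29 peaks in all 5 lists were on chromosome 21. The widest peak there was 1369 bases for Smad3 and 1008 bases for IRF3 in caSmad3 cells, and up to 388 and 450 bases for Smad3 and 870 bases for IRF3 in HA cells. The peaks nearest SNX6, a sorting nexin (1213 bases, also at a lncRNA start), and EAPP (1192 bases) covered the U1 pseudogenes RNU1-28P and RNU1-27P. The peak inside HHAT, the acyltransferase of hedgehog proteins (754 bases), covered the U5 pseudogene RNU5A-8P. Such copies are nearly identical to one another, and the labels do not say how reads with several matches were placed, so the position of these peaks is uncertain. The rule itself had already left out 139 overlapping peaks within 1 kb of RNA genes, 107 of them otherwise distal.

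Within the pairs, IRF3 peaks were the wider ones more often. The whole IRF3 list of caSmad3 cells was also wider, with a median of 215 bases against 178 bases for Smad3. Members had a median Smad3 width of 187 bases (quartiles 131 to 323, range 99 to 1952), against 180 bases for Smad3-alone and 154 bases for IRF3-alone peaks. The overlapping IRF3 peaks, taken as the one that shared most bases where a member met several, had a median of 277 bases. The IRF3 peak was the wider one at 252 members, the Smad3 peak at 137, and the widths were equal at 4. An IRF3 peak that met several members was counted at each of them. At start members the IRF3 peak was wider in 109 of 140, with medians of 327 bases for IRF3 and 182.5 bases for Smad3, while at the 218 members at neither it was wider in 121, with medians of 234 and 184 bases. Across the 393 pairs the Spearman correlation of the widths was 0.09, a description over peaks of 2 libraries of the same cells. The pairs shared a median of 129 bases (quartiles 99 to 202) and their centres lay a median of 76 bases apart. The Smad3 centre fell inside the IRF3 peak at 287 members (73.0%), and 11 pairs met by fewer than 20 bases. In all, 381 IRF3 peaks made up the partners, 5 of them not distal by the same rule, and 12 members met more than 1 IRF3 peak.

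**Figure D3:**
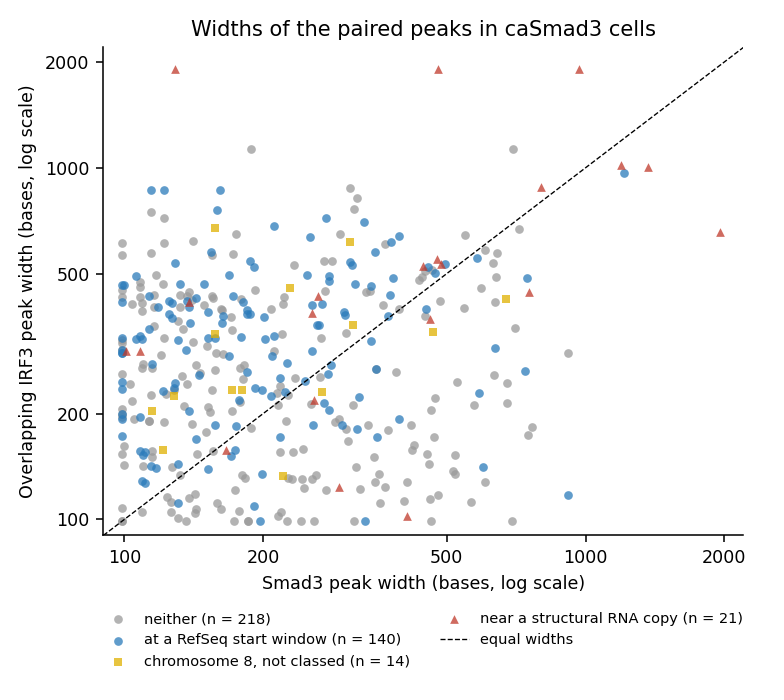
Width of the Smad3 peak (x axis, bases, log scale) against that of the overlapping IRF3 peak (y axis, bases, log scale) in caSmad3 cells for the 393 shared distal peaks. Colours and shapes give the position class, and the dashed line marks equal widths. The IRF3 peak is wider at 252 pairs, and the widest Smad3 peak, of 1952 bases, is a triangle below the line.

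Shared distal peaks came partly in groups. Chained at gaps of up to 10 kb, 96 members (24.4%, interval 20.3 to 29.0%) fell into 38 clusters, 29 of them pairs, and the 393 peaks marked 335 separate places. No such share was computed for Smad3-alone or IRF3-alone peaks, so the grouping is not shown to be particular to the members. After the chromosome 21 cluster, the largest was 6 peaks at chr1:50968067-50978640 around CDKN2C. There, 3 lay inside the gene, with 2 at start windows, and 3 lay beyond its end, 352, 258 and 318 bases wide for Smad3. The peak at the start printed above was 581 bases wide for Smad3 and 555 bases for IRF3 in caSmad3 cells, against a single IRF3 peak of 228 bases in HA cells. FLNA, an actin crosslinker, held 4 members (chrX:154369090-154371688), 260, 356, 442 and 110 bases wide for Smad3, all more than 1 kb inside the gene, and the 442-base peak alone was also listed for IRF3 in HA cells, at 428 bases. At SHC1, an adaptor of growth factor receptors, 3 members lay inside the gene (chr1:154970504-154972880).

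The widest member of all, 1952 bases for Smad3, lay at chr17:59842579-59844530 beyond VMP1, an autophagy protein, and beyond the microRNA gene MIR21 that follows it, and it formed a cluster with 2 peaks inside VMP1. It met 2 IRF3 peaks of caSmad3 cells, 658 and 933 bases wide, of which the 658-base peak lay wholly inside it. In HA cells the same stretch held Smad3 peaks of up to 389 bases after polyI:C and 509 bases after mock transfection, and an IRF3 peak of up to 293 bases. A U6 pseudogene, RNU6-450P, lies within 5 kb of it. The other wide members included one inside BNC2, a zinc finger gene (918 bases for Smad3 and 298 bases for IRF3 in caSmad3 cells), which was listed for Smad3 in both HA libraries (289 and 292 bases) and not for IRF3. The peak at a start of LOC124903828 (916 and 117 bases) was likewise listed for Smad3 alone in HA cells. The peak nearest EBNA1BP2, a ribosome assembly factor (767 and 183 bases), was listed in no HA library.

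**Figure D4:**
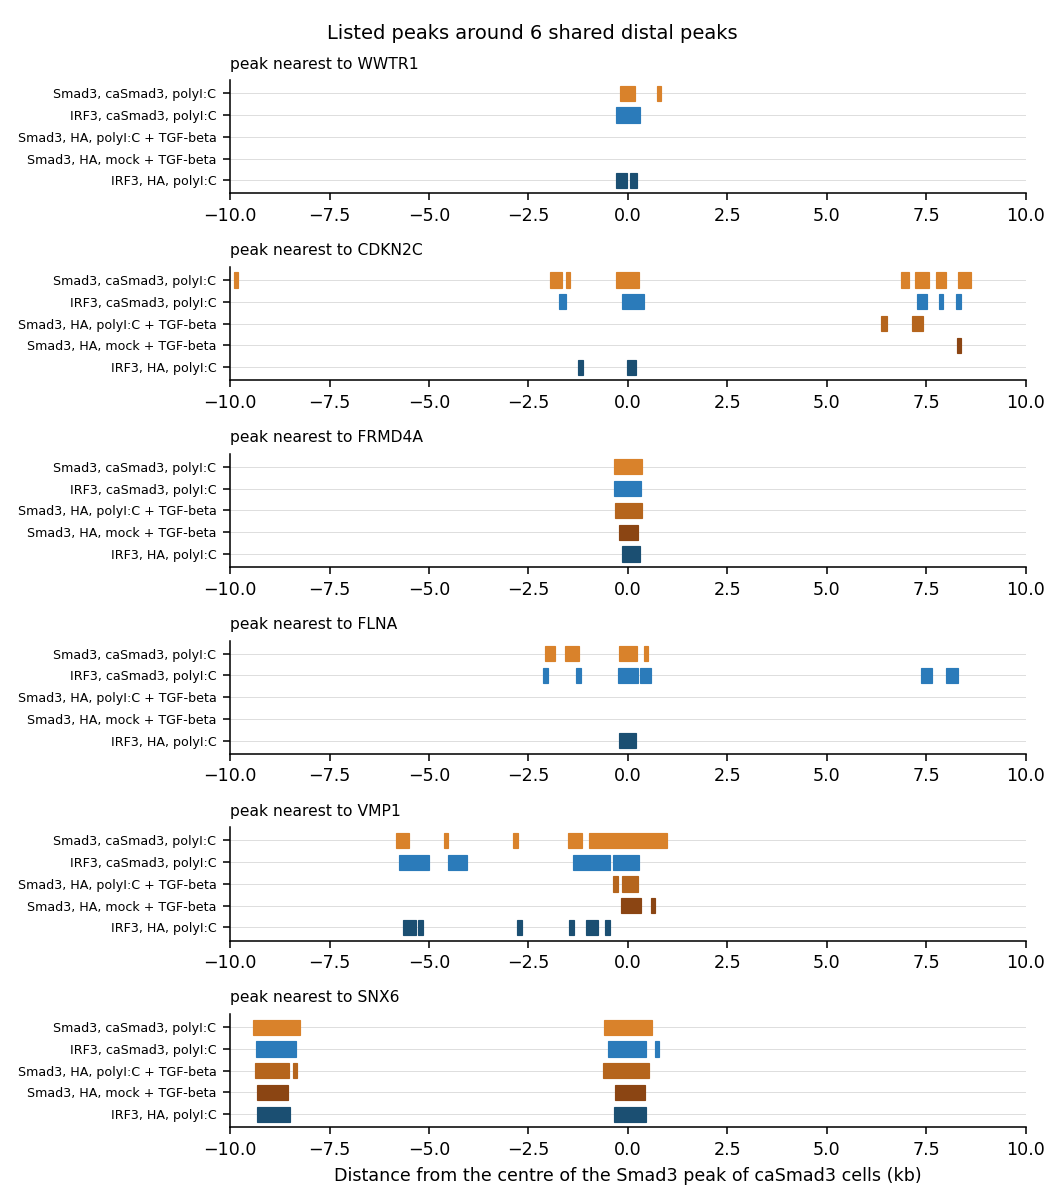
Listed peaks of the 5 libraries (rows, caSmad3 cells above HA cells) within 10 kb of a shared distal peak at each of 6 loci. The x axis is the distance from the centre of the Smad3 peak in kb, and bars are drawn to scale. At FRMD4A all 5 lists hold a peak, at WWTR1 the 2 Smad3 lists of HA cells hold none, and at FLNA 4 Smad3 peaks of caSmad3 cells stand beside 1 IRF3 peak of HA cells.

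Few genes of the 18 lists had a shared distal peak nearby. Within 50 kb lay 25 of their 539 genes (4.64%), against 3.21% of all 20037 protein-coding genes. The 18 lists hold pathway genes and also lists set beside them, such as housekeeping genes and leukocyte markers. Among TGF-beta/Smad targets there were 7 of 41 (17.1%), among them PMEPA1, TGIF1, CCN1, CDKN2B, LTBP3 and TGM2. Smad3-alone peaks lay within 50 kb of 23 of the 41, against 14.2% of all protein-coding genes. Within 10 kb there were 4 of 41, against a share of 1.44% of all protein-coding genes, and within 100 kb there were 9, against 5.50%. The count was 3 with the nearest gene only, 3 without the members at start windows and 4 with the ends of genes of any type. It was 3 with only peaks at or above the median width of each list, and 4 without chromosomes 3, 8, 9 and 20. PMEPA1, CDKN2B and TGM2 lie on the chromosomes left out, so that setting could not count them. No share of all protein-coding genes was computed for these settings. With only the 218 members at neither a start nor an RNA copy, the count was 3 of 41 (7.32%), against 1.62% of all protein-coding genes. The list was chosen with results of these data known, and its count is a description.

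**Figure D5:**
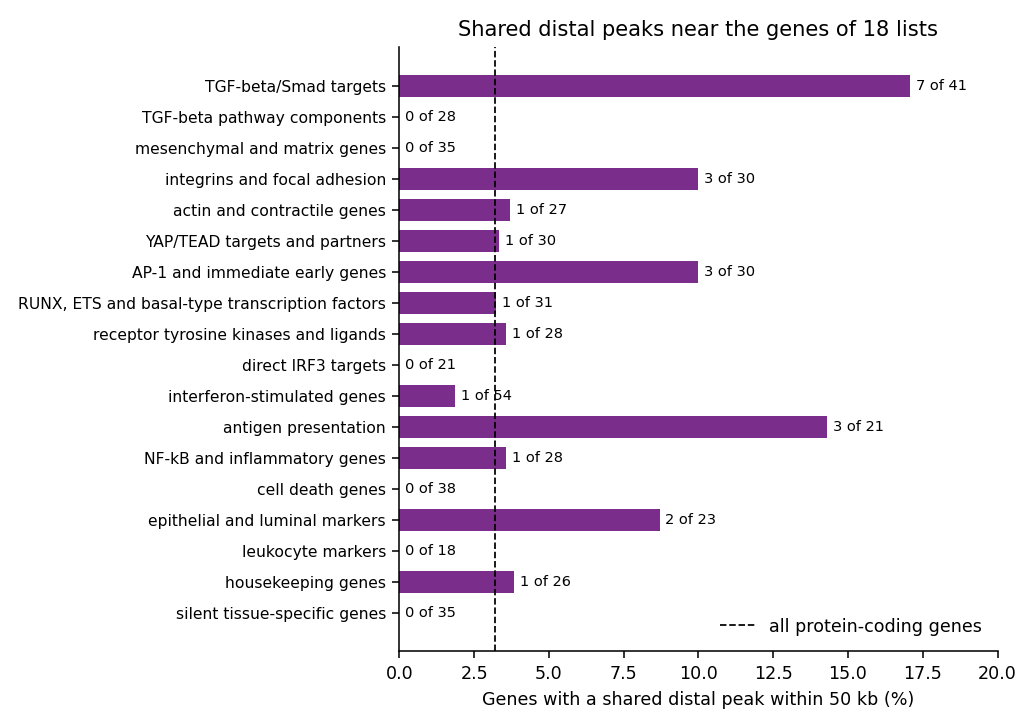
Share of the genes of 18 lists (y axis) that have a shared distal peak within 50 kb (x axis, percent), with the counts beside the bars. The dashed line marks the 3.21% of all protein-coding genes. The longest bar is that of the TGF-beta/Smad targets with 7 of 41, a count that was 3 or 4 under 5 other settings and 4 within 10 kb, and 6 lists have none.

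The TGF-beta targets differed in where the peak lay. At PMEPA1 one peak covered the start region printed above (chr20:57709909-57710163, 255 bases for Smad3 and 407 bases for IRF3), and a second lay 7003 bases upstream of the gene (296 and 185 bases), at the start of LOC105372692. Neither was listed in HA cells. TGIF1, a corepressor of Smads, held a peak of 109 bases at an internal start. CCN1, a matrix protein also known as a YAP target, held a Smad3 peak of 99 bases inside the gene with an IRF3 peak of 323 bases, and IRF3 was listed there in HA cells too. The peaks counted for CDKN2B were those at CDKN2A, 8520 and 27574 bases from it, that for LTBP3 was the MALAT1 peak, 39235 bases away, and that for TGM2, a transglutaminase, lay 49202 bases away inside KIAA1755. Peaks were assigned by distance only, and some of these genes share a peak with nearer genes.

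Genes of adhesion and the cytoskeleton had counts of 1 to 3 per list, beside 3.21% of all protein-coding genes. Integrins and focal adhesion genes had 3 of 30 (10.0%): FLNA, ACTN1, an actinin with a peak of 215 bases inside the gene, and ITGB1, the common integrin beta chain, with a peak of 676 bases that lay 22227 bases upstream. The ITGB1 peak was also listed for Smad3 in HA cells after polyI:C, at 261 bases. Actin and contractile genes had 1 of 27 (3.70%), PALLD, with a Smad3 peak of 136 bases and an IRF3 peak of 304 bases at an internal start. YAP/TEAD targets and partners had 1 of 30 (3.33%), WWTR1. Among AP-1 and immediate early genes there were 3 of 30 (10.0%). JUN held a Smad3 peak of 99 bases inside an IRF3 peak of 563 bases, and IER2, an immediate early gene, one of 367 bases with an IRF3 peak of 606 bases. Both were listed for IRF3 in HA cells, and the IER2 peak also for Smad3 in HA cells after polyI:C and TGF-beta, at 139 bases. The peak counted for FOSB was that at a start of ERCC1, a DNA repair gene, 43922 bases away.

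Antiviral lists had at most 3 genes each within 50 kb, beside 3.21% of all protein-coding genes. None of the 21 direct IRF3 targets had a shared distal peak within 50 kb, where 3 counts would be 14.3%. Interferon-stimulated genes had 1 of 54 (1.85%), and within 100 kb 5.56%, against 5.50% of all protein-coding genes. Antigen presentation genes had 3 of 21 (14.3%), TAP1, PSMB8 and PSMB9, the peptide transporter and immunoproteasome genes. All 3 were counted through a single peak of 178 bases (chr6:32894660-32894837) that lay 34809 to 49981 bases from them. NF-kB and inflammatory genes had 1 of 28, TRAF1, with a peak nearest PHF19. Receptor tyrosine kinases and ligands had 1 of 28, FGF5, and the list of RUNX, ETS and basal-type transcription factors had 1 of 31, TP63.

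The lists set beside these gave similar counts. Epithelial and luminal markers had 2 of 23, GATA3 with a peak of 162 bases inside the gene and KRT19 with one 19697 bases away. Housekeeping genes had 1 of 26, YWHAZ, on chromosome 8. The TGF-beta pathway components (28 genes), mesenchymal and matrix genes (35), cell death genes (38), leukocyte markers (18) and silent tissue-specific genes (35) had 0, where 3 counts would be 10.7%, 8.57%, 7.89%, 16.7% and 8.57%. With lists of this size, a count of 1 to 3 genes has little precision.

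Along the genome the members were uneven. Chromosome 1 held 60 of the 393 (15.3%), against 11.7% of Smad3-alone and 10.5% of IRF3-alone peaks, and chromosome 9 held 40 (10.2%, against 8.05% and 6.32%). Chromosome 20 held 32 (8.14%, against 5.78% and 4.24%) and chromosome 21 held 15 (3.82%, against 0.708% and 2.98%), 10 of them in the ribosomal pseudogene cluster. Chromosome 3 held 25 (6.36%, against 10.8% and 5.80%) and chromosome 8 held 14 (3.56%, against 7.56% and 3.35%). The copy number of these chromosomes in BT549 was not measured here.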

How the data were processed

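Smad3 and IRF3 binding was measured by ChIP-seq in 5 BT549 libraries, 1 per group. PCR ran for 15 cycles per the labels' protocols. Per the submitters' processing notes, the tools included MACS2 2.1.0 and Bowtie2 2.2.2.6 with hg38 as the build. Thresholds, input controls and the treatment of duplicate and multiply matching reads are not stated there. For every library the authors deposited 1 file with a chromosome, start, end and name for each peak, so the values are positions in bases.

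Groups were taken from the labels. Peaks were joined by at least 1 shared base, with starts converted to count from 1. Gene ends came from RefSeq GRCh38.p14 (20037 protein-coding genes), whose table gives no strand, and starts and letters from its 35116 start windows of 300 bases, which name 27305 genes and do not cover all genes. Exons and the genome sequence were not used here, so the planned motif search over peaks was replaced by one over start windows, an analysis added after the data were seen. A structural RNA copy means an RNA gene or pseudogene within 5 kb. Shares have 95% Clopper-Pearson intervals, which cover counting error only, and no test was made. The join was tested on simulated peaks. Members and lists were chosen with earlier results of these data known. Genes named are those nearest the 10 widest members, the members in all 5 lists (up to 15), the 5 largest clusters, the 5 farthest members, those beside the 1 kb limit and up to 5 per list within 50 kb, nearest first. LTBP3, TGM2 and the widest peaks described for caSmad3 cells only, as well as NEAT1, RTN4, LASTR and ADGRG1, were named after their values were seen. Some genes that the rule names are not reported here. Alternatives varied overlap, distance, gene ends, RNA genes, width, chromosomes and window. Python 3.11.15, pandas 2.3.3, numpy 2.4.6, scipy 1.17.1 and matplotlib 3.10.9 were used.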

Additional observations from a re-analysis of the deposited data

How the results depend on the processing

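Results of 102 recomputations over 12 settings stayed within the counting interval (counts within 1.5 times) in 60 and moved in 42, and none could reverse, as none is a signed difference. With 50% of the Smad3 peak covered by IRF3, 7.16% of distal Smad3 peaks were shared, 63.3% of them were listed for IRF3 in HA cells and their median width was 169 bases. With the Smad3 centre inside an IRF3 peak these were 7.34%, 61.5% and 171.5 bases. With a distal limit of 5 kb, 8.47% were shared and 49.0% lay inside genes. With ends of genes of any type, 235 peaks (6.81%) remained, 65.1% inside genes and 30.0% at starts, near 16 listed genes and 4 TGF-beta targets. With peaks at RNA genes kept, 12.4% were shared, 27.8% and 19.6% were listed for Smad3 in HA cells after polyI:C and after mock transfection, 59.6% for IRF3, 45.6% lay inside genes, 30.0% at starts and 36.2% in clusters, and the median width was 221.5 bases. With only peaks at or above the median width of each list, 137 peaks (6.82%) were left. Of these, 31.4%, 19.0% and 72.3% were listed in the same 3 HA libraries, 44.6% lay at starts and 14.6% in clusters, with a median of 312 bases, near 11 listed genes and 3 TGF-beta targets. Without chromosomes 3, 8, 9 and 20 there were 4 TGF-beta targets, as PMEPA1, CDKN2B and TGM2 lie on chromosomes left out. With a 10 kb window there were 13 listed genes and 4 targets, and with the nearest gene only 15 and 3. Both alternatives added after seeing the data left out members. Without those at starts, 253 peaks were left, 13.4% listed for Smad3 after mock transfection, 45.1% inside genes and near 3 targets. Without those near RNA copies, 6.79% were listed for Smad3 after mock transfection. The cause was not tested beyond the fewer peaks or genes each setting leaves. Of 204 counts for single lists, 41 moved.

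No paired analysis was possible because each group holds 1 library. Leaving out a library was not possible for the same reason. Read depth is unknown, so absence from a list does not show absence of binding, and counts under 5 genes per list carry little precision.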
